A study of Mus musculus with 158 samples.

Results

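Open chromatin of F1 mice with a wild-derived father was compared with that of F1 mice with a father of a classical laboratory strain. The wild-derived side was made of B6xCAST and B6xPWK, offspring of C57BL/6J females and CAST/EiJ or PWK/PhJ males, and the laboratory side of B6x129 and B6xC3H, whose fathers came from the classical laboratory strains that those names give. No treatment was named, the mice were killed at 8 weeks of age, and all carried 1 C57BL/6J (B6) genome from their mother, so the sides differed in the other parental genome. B6x129 and B6xC3H were purchased as females, whereas B6xCAST and B6xPWK were bred at the authors' centre from purchased males, so that parental origin cannot be told apart from source, housing and, for liver, kidney and lung, sex. DNase-seq, which cuts accessible DNA with the enzyme DNase I and sequences the ends, had been performed in liver, kidney, lung and bone marrow B cells depleted of CD43+ and CD11b+ cells. Solid organs were usually pooled from several mice sacrificed together. Each of the 16 conditions pooled 2 to 6 samples, 57 in all, and each was deposited as 1 set of hotspots, the regions where DNase I cutting exceeded the local background at a false discovery rate (FDR) of 5%.

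Within each tissue, autosomal hotspots of the 4 hybrids that overlapped by 1 bp or more were merged into sites. A site was called wild-derived when both B6xCAST and B6xPWK had a hotspot in it and neither B6x129 nor B6xC3H had one, and laboratory in the opposite case. The 4 tissues held 1208977 merged sites in all, of which 56479 were called for either side. Since samples were pooled in each set, the hybrid was the unit, and with 2 hybrids against 2 the 6 possible arrangements allow no two-sided exact permutation p below 0.333. No difference between the sides could therefore pass a test, and all counts and shares are descriptions of these 16 sets.

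A DNase I hypersensitive site is a stretch of DNA cleared of its nucleosome, usually because transcription factors are bound there, and such sites mark promoters, enhancers and insulators. CAST/EiJ and PWK/PhJ derive from Mus musculus castaneus and Mus musculus musculus, and their genomes differ from B6 at many more positions than those of the laboratory fathers, which share much of their ancestry with B6. A variant in a factor's recognition sequence can create or remove a hypersensitive site on 1 allele of an F1 mouse, while the B6 allele remains the same in all hybrids. A site present in both hybrids of a side may thus lie on an allele shared by their fathers, but a hotspot set does not say which allele was cut.

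The sequences at 8 sites are shown because the per-hybrid values below return to them. They are reference (B6) sequences of the plus strand of mm10, at most 200 bases around the centre of the segment covered by both hybrids of the called side (for the 2 sites called in 4 tissues, of the merged site), with matches to 11 factor motifs in capitals.
Gnaq upstream, liver, wild-derived, chr19:16089062-16089261: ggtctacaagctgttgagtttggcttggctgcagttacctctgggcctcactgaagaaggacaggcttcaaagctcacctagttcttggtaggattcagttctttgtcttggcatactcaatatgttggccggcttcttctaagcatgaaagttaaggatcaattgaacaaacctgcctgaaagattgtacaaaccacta
Dock5 intron, liver, wild-derived, chr14:67783973-67784172: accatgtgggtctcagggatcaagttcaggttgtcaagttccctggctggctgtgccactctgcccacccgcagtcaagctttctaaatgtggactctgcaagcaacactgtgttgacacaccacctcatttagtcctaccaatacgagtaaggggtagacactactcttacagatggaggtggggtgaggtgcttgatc
Near Adh7, liver, laboratory, chr3:138212809-138213008: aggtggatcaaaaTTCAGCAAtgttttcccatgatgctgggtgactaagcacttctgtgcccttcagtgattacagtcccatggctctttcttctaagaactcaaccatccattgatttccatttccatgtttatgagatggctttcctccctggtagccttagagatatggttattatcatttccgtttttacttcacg
Esyt2 intron, kidney, laboratory, chr12:116386923-116387122: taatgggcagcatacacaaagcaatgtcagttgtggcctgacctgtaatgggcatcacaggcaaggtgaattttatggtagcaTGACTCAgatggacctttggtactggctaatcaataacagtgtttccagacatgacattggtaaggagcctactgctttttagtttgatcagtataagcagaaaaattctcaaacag
Rprd1b intron, B cells, wild-derived, chr2:158084615-158084814: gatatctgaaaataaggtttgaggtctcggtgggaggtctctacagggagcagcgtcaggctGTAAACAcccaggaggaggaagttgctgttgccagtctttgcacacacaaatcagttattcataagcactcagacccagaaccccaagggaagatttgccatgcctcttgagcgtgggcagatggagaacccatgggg
C130026I21Rik intron, lung, wild-derived, chr1:85144166-85144236: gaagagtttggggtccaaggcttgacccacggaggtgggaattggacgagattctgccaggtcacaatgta
Il23r intron, 4 tissues, wild-derived, chr6:67436411-67436610: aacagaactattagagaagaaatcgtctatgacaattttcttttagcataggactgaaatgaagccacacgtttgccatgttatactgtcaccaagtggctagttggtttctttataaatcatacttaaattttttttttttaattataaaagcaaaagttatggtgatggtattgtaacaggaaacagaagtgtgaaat
Near Acvrl1, 4 tissues, laboratory, chr15:101148642-101148841: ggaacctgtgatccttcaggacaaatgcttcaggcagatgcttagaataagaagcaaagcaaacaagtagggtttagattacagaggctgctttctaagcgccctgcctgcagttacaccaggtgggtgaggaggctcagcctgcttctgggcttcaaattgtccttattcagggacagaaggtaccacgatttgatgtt
The Adh7 sequence holds a match to C/EBP (TTGCNNAA), that of Esyt2 a match to AP-1 (TGANTCA) and that of Rprd1b a match to FOXA (TGTTTAC), those of C/EBP and FOXA being read on the minus strand, whereas the other 5 hold none of the 11 motifs on either strand. The C130026I21Rik sequence lies in repeats over 100% of its bases in the soft-masked reference, compared with 29% at Esyt2, 24% at Il23r and 12% or less at the other 5. These letters are those of the B6 allele, and the bases of the 4 other parents were not analysed here.

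In liver, 6707 sites were wild-derived and 14655 were laboratory, a ratio of 0.458, whereas in the other tissues the wild-derived sites were the more numerous. In kidney 7958 wild-derived and 5082 laboratory sites gave a ratio of 1.57. In lung 8585 and 1601 sites gave a ratio of 5.36. In B cells 11597 and 294 sites gave a ratio of 39.4. Wild-derived sites thus made up 1.89% of the 355361 merged sites of liver, 2.56% of the 311426 of kidney, 2.45% of the 350046 of lung and 6.04% of the 192144 of B cells, and laboratory sites 4.12%, 1.63%, 0.457% and 0.153%, respectively.

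Read depth, hotspot number and, in kidney and B cells, the share of reads in hypersensitive sites also differed between the sides. In liver, the pooled reads numbered 414 M (megareads) in B6xCAST and 345 M in B6xPWK, compared with 617 M in B6x129 and 409.9 M in B6xC3H. In kidney the corresponding reads were 405 and 333 M against 171 and 219 M, in lung 543 and 315 M against 299 and 198 M, and in B cells 394 and 376 M against 347 and 190.1 M. The ratio of the mean reads of the wild-derived side to those of the laboratory side was thus 0.739 for liver, 1.89 for kidney, 1.73 for lung and 1.43 for B cells. The ratio of mean hotspot numbers was 0.933, 1.04, 1.15 and 1.48 in the same order. The hotspot ratios thus had the order of the site ratios, whereas the read ratios did not, being lower in B cells than in kidney or lung. Liver was the tissue in which the laboratory side was the deeper one, and B cells the tissue in which the hotspot numbers differed most. The smallest set was that of B6xC3H in B cells with 76055 autosomal hotspots, compared with 114072 in B6x129, 130084 in B6xPWK and 151020 in B6xCAST. The share of reads within hypersensitive sites is given by the SPOT score. In B cells its median over samples was 0.725 in B6xCAST and 0.53 in B6xPWK, compared with 0.4 in B6x129 and 0.465 in B6xC3H. In kidney the order was opposite, with 0.485 and 0.57 against 0.765 and 0.72. In liver and lung the medians of the sides overlapped.

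**Figure D1:**
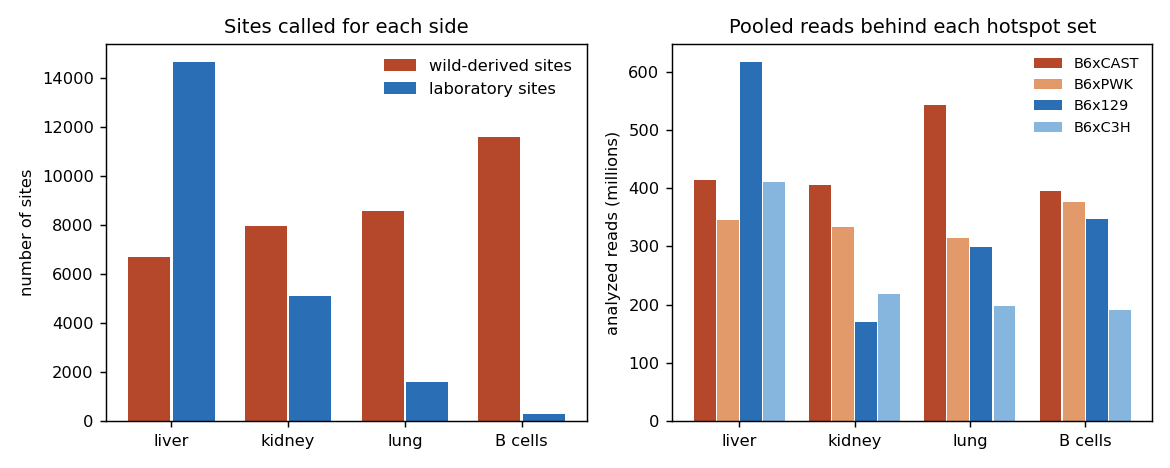
Left, number of sites called wild-derived (red) or laboratory (blue) in each tissue; right, analyzed reads (megareads, M) pooled behind each hybrid's hotspot set (1 bar per hybrid and tissue, no replicates). Laboratory sites outnumber wild-derived ones in liver, where B6x129 has 617 M reads, and are 294 in B cells, where B6xC3H has 190.1 M.

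When every set of a tissue was cut to the number of hotspots of its smallest set, keeping those with the lowest FDR, each ratio moved towards 1 without crossing it. It became 0.642 for liver, 1.23 for kidney, 2.05 for lung and 3.39 for B cells, where 3268 wild-derived and 965 laboratory sites were then called. Depth, SPOT score and parental origin cannot be told apart in the remaining difference. Moreover, leaving out 1 hybrid turned the direction for liver (1.11 without B6xPWK and 1.47 without B6xCAST), kidney (0.366 without B6xC3H and 0.802 without B6x129), lung (0.199 without B6xC3H) and B cells (0.747 without B6xC3H), since the side left with 1 hybrid then counts every hotspot private to it.

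The other combinations of hybrids were counted beside the called pairs. Of the 46442 liver sites with a hotspot in exactly 2 of the 4 hybrids, 14.4% were those of B6xCAST and B6xPWK and 31.6% those of B6x129 and B6xC3H, while B6xPWK with B6x129, a pair across the sides, made up 29.0%. In lung, the 2 largest sets, B6xCAST and B6x129, made up 70.3% of 55523 such sites, the wild-derived pair 15.5% and the laboratory pair 2.88%. In B cells the wild-derived pair made up 49.1% of 23600 such sites and B6xCAST with B6x129 40.2%. In kidney, where the 4 sets were the most alike in number, the wild-derived pair made up 21.6% of 36817 such sites and the laboratory pair 13.8%, and the pairs across the sides ranged from 8.79% to 24.4%.

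Most called sites were weak. The strength of a site on a side was taken as the lower of the −log10 FDR of its 2 hybrids, called the lower score below, which stops at 100 and, in the deposited sets, reaches down to the value that an FDR of 5% gives. Its median was 2.50 at wild-derived and 2.19 at laboratory liver sites, compared with 16.5 and 19.6 for the same hybrids at liver sites open in all 4. In kidney the medians were 2.08 and 1.99, in lung 2.14 and 1.88, and in B cells 2.41 and 2.34, compared with values from 5.92 to 30.7 at sites open in all 4 hybrids of those tissues. A lower score under 2, that is an FDR over 1% in at least 1 of both hybrids, was found at 32.9% of wild-derived and 40.5% of laboratory liver sites, at 45.8% and 50.5% of those of kidney, at 42.3% and 60.4% of those of lung and at 31.9% and 33.0% of those of B cells. The called sites were also short, with median widths of 198 to 256 bp, compared with 444 to 647 bp for sites open in all 4 hybrids.

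The strongest sites were more often wild-derived in all 4 tissues, including liver. With a lower score of 10 or more, 599 wild-derived and 212 laboratory sites remained in liver, a ratio of 2.83, and with 20 or more 275 and 42 remained, a ratio of 6.55. The liver ratio thus passed from under 1 to over 1 with the required strength. Over all liver hotspots the median score was 7.82 in B6xCAST and 8.68 in B6xPWK, compared with 5.92 in B6x129 and 6.94 in B6xC3H, and the part of this difference in the ratio of strong sites was not tested. In kidney, 132 wild-derived and 24 laboratory sites had a lower score of 10 or more, in lung 75 and 2, and in B cells 327 and 8. The ratio was 1.57 for all kidney sites and 5.50 for those with a lower score of 10 or more, and 39.4 and 40.9 in B cells. Scores grow with depth as well as with the difference from background, so a floor on the score does not remove the difference in reads.

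**Figure D2:**
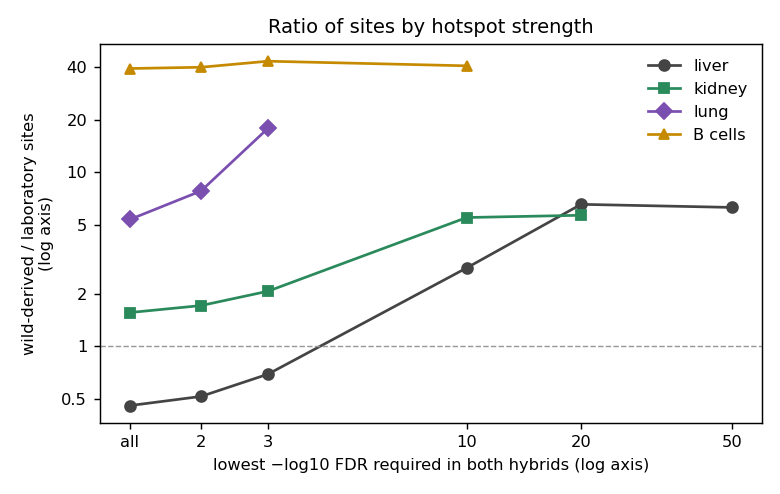
Ratio of wild-derived to laboratory sites (y axis, log scale) by the lowest −log10 FDR required in both hybrids of the called side (x axis, log scale, "all" being every called site), 1 line per tissue, with points shown where at least 5 laboratory sites remain. The liver line starts at 0.458, crosses 1 between 3 and 10 and reaches 6.55 at 20, and the B cell line stays between 39.4 and 43.5.

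The strongest liver sites had scores at the ceiling in both hybrids of a side and no hotspot in the other. Such a site at chr19:16088581-16089830 (mm10), 43669 bp from the nearest annotated start, that of Gnaq, which encodes a G protein alpha subunit, had a −log10 FDR of 100 in B6xCAST and in B6xPWK, and no hotspot in B6x129 or B6xC3H. B6xSPRET, the hybrid of Mus spretus that took no part in the rule, had a hotspot there with a score of 27.7. The site at chr14:67783618-67784686, in an intron of Dock5, an activator of the GTPase Rac, had scores of 100 in both wild-derived hybrids and also in B6xSPRET. The site at chr4:44740027-44740913, an intergenic site 16083 bp from the nearest coding start, that of Zcchc7, had 100 in both wild-derived hybrids, and 21.3 in B6xSPRET. None of the 4 hybrids had a hotspot at the Gnaq or Dock5 site in kidney, lung or B cells, whereas all 4 had one in kidney at the Zcchc7 site.

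Of the laboratory sites of liver, that at chr3:138211723-138214062, 4851 bp from the start of Adh7, an alcohol dehydrogenase, and in an intron of the antisense gene 0610031O16Rik, had scores of 100 in B6x129 and B6xC3H and none in B6xCAST, B6xPWK or B6xSPRET. A narrower site within it was the second strongest laboratory site of kidney, with 33.6 in B6x129 and 44.1 in B6xC3H. The same 2 hybrids were thus open, and the same 3 closed, in both organs. Introns of Dlc1 and of Camta1, a transcriptional activator, held the next liver sites, each with 100 in both laboratory hybrids. The Camta1 site had a score of 3.11 in B6xSPRET and no hotspot in the other tissues, while at the Dlc1 site all 4 hybrids had a hotspot in kidney and in lung.

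In kidney, the first laboratory site by strength lay at chr12:116386831-116387328 in an intron of Esyt2, which encodes a tether between endoplasmic reticulum and plasma membrane, with 38.0 in B6x129 and 73.6 in B6xC3H. In liver all 4 hybrids were open there, so the side difference was seen in kidney. An intron of Pde11a, a cyclic nucleotide phosphodiesterase, held the next but one, with 35.7 and 33.4. The first wild-derived sites of kidney, at chr8:19798689-19798945 and chr8:19794835-19795096 near and in the noncoding gene Gm26853, had 100 in both wild-derived hybrids and no hotspot in B6xSPRET or, in any of the 4 hybrids, in liver. The next, at chr19:6671652-6671957 in an intron of the noncoding gene 2410152P15Rik, had 63.0 in B6xCAST and 43.98 in B6xPWK, and both hybrids, but neither laboratory hybrid, were also open there in liver and in lung.

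In B cells, a wild-derived site at chr2:158084367-158085064 in an intron of Rprd1b, a regulator of RNA polymerase II, had 100 in B6xCAST, 89.0 in B6xPWK and 62.1 in B6xSPRET. Both wild-derived hybrids, but neither laboratory hybrid, were open there in lung. The site at chr16:77060157-77060606 in an intron of Usp25, a deubiquitinase, had 100 and 69.9, and was open in both wild-derived hybrids and neither laboratory hybrid in liver and in kidney, whereas in lung B6x129 was open there too. The first wild-derived site of B cells, at chr2:104041172-104042589 in an intron of the F-box gene Fbxo3, had 100 in both, yet all 4 hybrids were open at it in each of the 3 other tissues. Of the laboratory sites of B cells, that at chr14:63564993-63565524, 21352 bp from the start of Mtmr9, a member of the myotubularin family, had 55.5 in B6x129 and 20.8 in B6xC3H.

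Some of the highest scores belonged to very narrow sites in repeats or near pseudogenes. In lung, the 3 strongest wild-derived sites were 71, 73 and 66 bp wide, the first in an intron of C130026I21Rik and the others near the pseudogene Gm2959, each with 100 in both hybrids. The first laboratory site of lung was 87 bp wide, with 100 in both, near the pseudogene Gm8874, and the next had 19.5 in B6x129 and 10.1 in B6xC3H. The first laboratory site of B cells was 61 bp wide, in the pseudogene Gm3956. None of these had a hotspot in B6xSPRET. Whether reads from near-identical copies were placed there was not tested.

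To ask whether a side's sites recur, called sites were merged over tissues. The wild-derived sites gave 33573 regions, of which 1104 (3.29%) were called in 2 or more tissues, 117 in 3 or more and 24 in all 4. The laboratory sites gave 21344 regions, of which 275 (1.29%) were called in 2 or more tissues, 11 in 3 or more and 1 in all 4. The 2 shares do not compare recurrence between the sides, since called sites were spread differently over tissues. Laboratory sites numbered 14655 in liver, 1601 in lung and 294 in B cells. Of laboratory sites of kidney, lung and B cells, 3.70%, 4.18% and 5.10% were laboratory in liver, against 4.12% of all liver sites. For wild-derived sites the shares were 3.61%, 2.34% and 1.08%, against 1.89%. In pairs without liver the laboratory share was the lower. No hotspot of the other side in any tissue was found at 16614 of the wild-derived regions (49.5%) and at 9404 of the laboratory regions (44.1%). With equal numbers of hotspots, 729 wild-derived and 441 laboratory regions were called in 2 or more tissues.

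Recurrence on the same side was far from complete, and for liver and B cells it was exceeded by calls in the opposite direction. Of the wild-derived sites of kidney and lung, 298 overlapped each other, 3.74% of those of kidney and 3.47% of those of lung. Over all merged sites, 2.45% of those of lung and 2.56% of those of kidney were wild-derived. Laboratory sites of lung overlapped 9 wild-derived sites of kidney, and wild-derived sites of lung overlapped 32 laboratory sites of kidney. Lung and B cells shared 298 wild-derived sites, 3.47% of those of lung, and kidney and B cells 237, 2.98% of those of kidney. Of all merged B cell sites, 6.04% were wild-derived. Among the wild-derived B cell sites the shares were 2.57% and 2.04%, against 2.45% of all lung and 2.56% of all kidney sites. Liver and kidney shared 287 wild-derived and 188 laboratory sites, 4.28% and 1.28% of those of liver, against 2.56% and 1.63% of all kidney sites. They made up 3.61% and 3.70% of those of kidney, against 1.89% and 4.12% of all liver sites. However, 325 of the 14655 laboratory sites of liver were wild-derived in kidney, and 19 of the 6707 wild-derived ones were laboratory there. Between liver and B cells, 162 of the 14655 laboratory sites of liver were wild-derived in B cells, compared with 125 sites that were wild-derived in both. The 125 were 1.86% of the wild-derived liver sites, against 6.04% of all B cell sites. They were 1.08% of the wild-derived B cell sites, against 1.89% of all liver sites. In all, 684 wild-derived regions of a tissue, 2.04% of them, overlapped a laboratory region of another.

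The other tissues also give a reading of the sites that the call in 1 tissue did not use. Of the wild-derived liver sites, 19.7% had a hotspot of B6xCAST and 20.4% one of B6xPWK in kidney, compared with 14.5% for B6x129 and 12.1% for B6xC3H. Of the wild-derived kidney sites, 43.6% and 24.3% had a lung hotspot of B6xCAST and B6xPWK, compared with 31.2% and 13.8% for B6x129 and B6xC3H. The wild-derived hybrids were thus both higher than both laboratory hybrids for liver sites read in kidney, but in lung B6xPWK lay between the laboratory hybrids, as the set sizes do. Of the laboratory kidney sites, 38.2% had a liver hotspot in B6x129 and 26.8% in B6xC3H, compared with 22.6% in B6xCAST and 24.9% in B6xPWK.

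To offset the size of the sets read, the difference between the sides' mean shares was compared between wild-derived and laboratory sites of the same tissue, both being read in the same 4 sets. This difference was higher for wild-derived than for laboratory sites in 10 of 12 ordered tissue pairs, with a median of 6.01 percentage points and a range from −3.30 to 12.8. The exceptions were liver sites read in B cells (−2.03) and B cell sites read in kidney (−3.30). The highest value was that of lung sites read in liver, where the sides differed by 1.32 points at wild-derived sites and by −11.4 points at laboratory sites, wild-derived minus laboratory. Without the sites of B cells, of which only 294 were laboratory, the value was positive in 8 of 9 pairs, with a median of 5.13 points. The 12 pairs reuse the same 16 sets and are not independent.

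**Figure D3:**
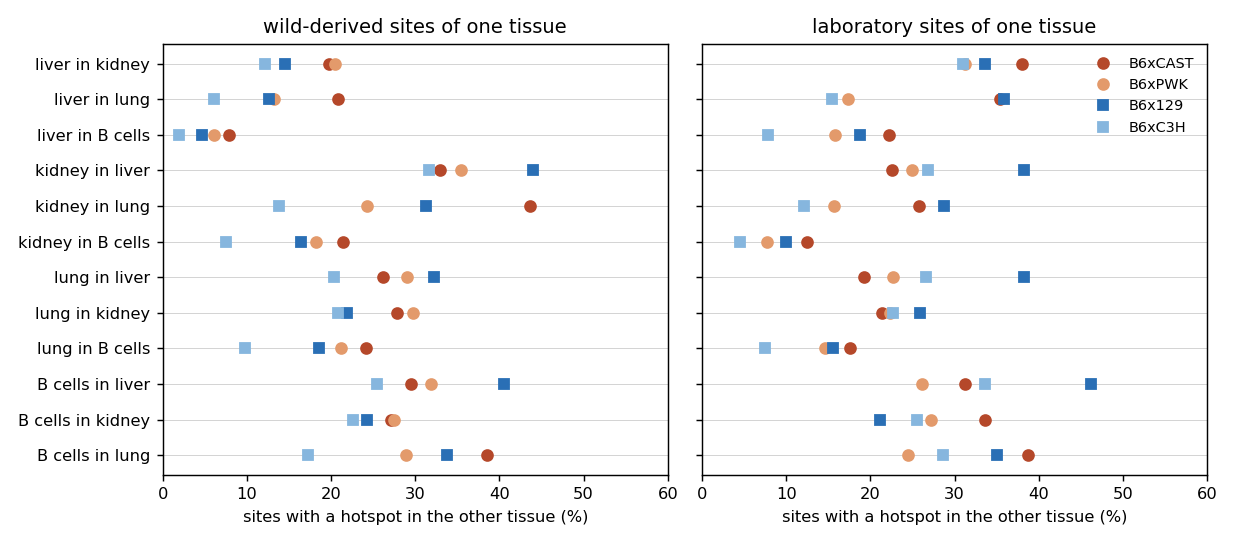
Percent of wild-derived (left) or laboratory (right) sites of a tissue that have a hotspot in another tissue, 1 point per hybrid (circles, wild-derived; squares, laboratory) and 1 row per pair of tissues. Of wild-derived liver sites read in kidney, both circles (19.7% and 20.4%) lie to the right of both squares (14.5% and 12.1%), while for kidney sites read in liver B6x129 is the rightmost point in both panels.

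Strong sites were read in the other tissues in the same way. Of the 132 wild-derived kidney sites with a lower score of 10 or more, 56.1% and 60.6% had a liver hotspot in B6xCAST and B6xPWK, compared with 28.8% and 18.2% in B6x129 and B6xC3H. In lung the same sites were open in 46.2% and 39.4%, compared with 18.9% and 11.4%. Of the 327 such B cell sites, 51.7% and 39.8% were open in lung in the wild-derived hybrids, compared with 25.7% and 16.8%. Of the 212 strong laboratory liver sites, 41.98% and 43.9% had a kidney hotspot in B6x129 and B6xC3H, compared with 34.4% and 28.8% in B6xCAST and B6xPWK. Both wild-derived hybrids were higher than both laboratory hybrids in 12 of 12 such readings of strong wild-derived sites, compared with 7 of 12 for all wild-derived sites. For laboratory sites, where strong sites did not stand apart from all sites in this, the called side was the higher in 2 of 6 readings of strong sites and in 4 of 12 of all sites. Readings with fewer than 20 strong sites were not made.

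The 10 wild-derived sites called in all 4 tissues with the highest minimum score were mostly intergenic or intronic and often close to unnamed or pseudogene loci. At chr6:67436309-67436713, in an intron of Il23r, which encodes a subunit of the interleukin 23 receptor, B6xCAST and B6xPWK had scores of 8.23 and 14.3 in liver, 11.2 and 14.3 in kidney, 16.2 and 5.71 in lung and 40.4 and 45.3 in B cells. B6x129 and B6xC3H had no hotspot there in any tissue, and B6xSPRET had 3.89, 17.7, 1.98 and 4.92 in the same order. At chr15:63780823-63781155, in an intron of Gsdmc, a gasdermin that forms membrane pores, the wild-derived hybrids had 11.1 and 30.7 in liver, 21.6 and 29.9 in kidney, 5.01 and 2.56 in lung and 54.0 and 33.1 in B cells. B6xSPRET was open at this site in all 4 tissues as well, with scores from 3.04 to 18.3.

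4 of the 10 lay between chr14:43273172 and chr14:43278442, in or next to the predicted gene Gm9732 and the pseudogene Gm17153. At chr14:43278238-43278442, in an exon of Gm9732, scores were 88.5 and 7.99 in liver, 7.12 and 15.9 in kidney, 14.2 and 14.4 in lung and 8.70 and 17.3 in B cells for B6xCAST and B6xPWK. B6xSPRET had no hotspot at this site. The first of the 10, at chr10:58206562-58219377, was 12816 bp wide, the widest of the 24 sites called in 4 tissues, whose median width was 311 bp, and its scores ranged from 7.85 to 20.2. Of the 24, B6xSPRET was open at 12 in at least 1 tissue, and 10 lay on chromosome 14. At 1, near Gm19256, the region merged over tissues also overlapped another liver site, which had a B6x129 hotspot with 6.77. The liver site called wild-derived there had no laboratory hotspot, as the rule requires.

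On the laboratory side, a single site was called in all 4 tissues. It lay at chr15:101148585-101148898, 14609 bp from the start of Acvrl1, a receptor of the TGF-beta family on endothelial cells, with 10.1 and 10.0 in B6x129 and B6xC3H in liver, 3.53 and 5.21 in kidney, 2.06 and 3.62 in lung and 12.6 and 2.80 in B cells. Neither wild-derived hybrid had a hotspot there in any tissue, but B6xSPRET had one in kidney, lung and B cells. Among the 10 sites called in 3 tissues, that at chr7:19255517-19256036, in an exon of Opa3, which encodes a mitochondrial protein, had 54.0 and 41.3 in liver, 9.14 and 25.3 in kidney and 11.8 and 4.60 in lung. An intronic site of the receptor kinase Flt3, chr5:147381398-147381799, had 99.1 and 32.1 in liver, 8.50 and 13.5 in kidney and 9.28 and 2.73 in lung. B6xSPRET had no hotspot at the Opa3 or Flt3 site.

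**Figure D4:**
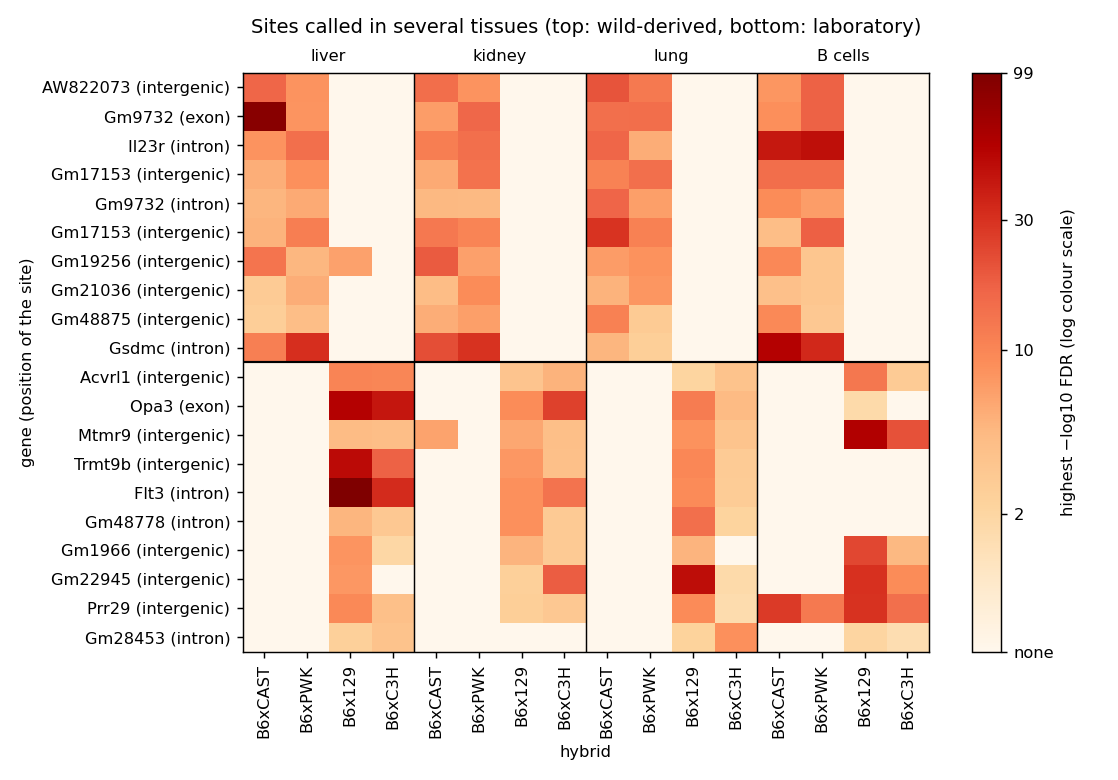
Highest −log10 FDR (colour, log scale; palest where there is no hotspot) in each hybrid and tissue at the 10 wild-derived sites called in 4 tissues with the highest minimum score (top) and the 10 first laboratory sites called in 3 or 4 tissues (bottom), named by the gene that holds the site or has the nearest start. The top rows are coloured under B6xCAST and B6xPWK in every tissue, with 1 exception under B6x129 in liver (6.77, Gm19256), from another liver site that the merged region overlaps.

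B6xSPRET, a hybrid with another wild-derived father, was read at the called sites of the same tissue. It had a hotspot at 33.4% of wild-derived and 15.03% of laboratory sites in liver, at 27.1% and 20.5% in kidney and at 29.6% and 15.3% in lung. In B cells the order was opposite, with 13.4% of wild-derived and 17.7% of laboratory sites. These shares lay under those of all merged sites, which were 43.1% for liver, 48.8% for kidney, 40.2% for lung and 33.9% for B cells, and far under those of sites open in all 4 hybrids (89.8% to 92.0%). Among sites with a lower score of 10 or more, B6xSPRET was open at 49.4% of the 599 wild-derived and 27.8% of the 212 laboratory liver sites, at 56.1% of 132 and 41.7% of 24 kidney sites, and at 35.2% of 327 wild-derived and 0 of 8 laboratory B cell sites. In lung it was open at 33.3% of 75 such wild-derived sites, close to the 29.6% of all wild-derived lung sites, and at 0 of 2 laboratory sites.

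Embryonic stem cells of B6xCAST, a hybrid of the wild-derived side, gave a further reading in another cell type. The hotspots of CTCF, the insulator-binding factor that anchors chromatin loops, overlapped 2.79% of wild-derived and 18.6% of laboratory liver sites, compared with 13.5% of all merged liver sites. In kidney the order was reversed, with 10.5% of wild-derived and 5.61% of laboratory sites, against 14.2% of all. In lung the shares were 3.90% and 8.56%, against 12.5% of all, and in B cells 10.6% and 6.46%, against 20.8% of all. DNase I hotspots of the stem cells overlapped 4.22% and 14.4% of the wild-derived and laboratory sites in liver, 10.4% and 5.65% in kidney, 5.999% and 6.996% in lung and 9.93% and 5.44% in B cells, against 15.7%, 18.4%, 16.9% and 23.3% of all merged sites. Apart from the laboratory sites of liver for CTCF, both sides thus lay below the share of all sites in each tissue. In liver, kidney and B cells the side with the more called sites was also the side whose sites more often overlapped a stem cell CTCF hotspot, while CTCF in these tissues was not measured.

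**Figure D5:**
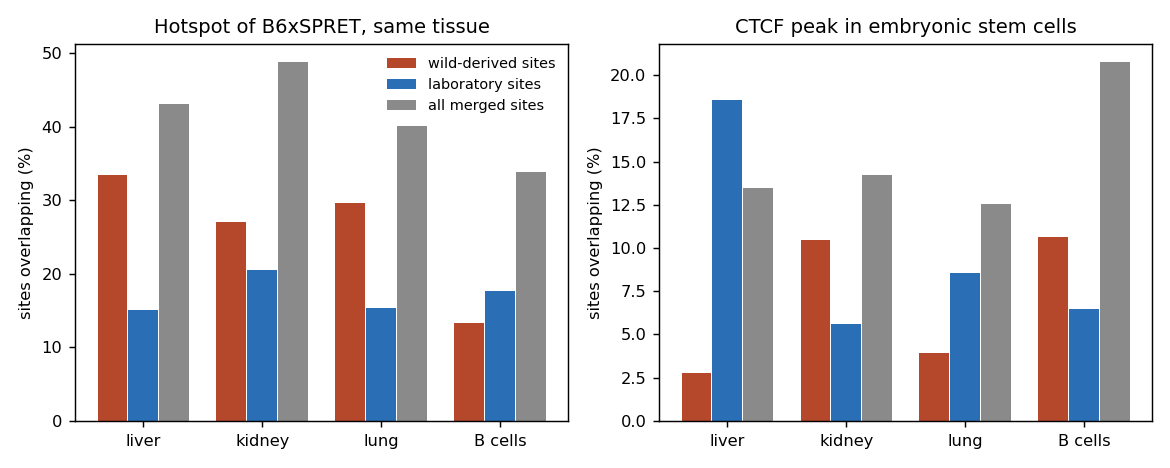
Percent of wild-derived (red), laboratory (blue) and all merged sites (grey) of each tissue that overlap a B6xSPRET hotspot of that tissue (left) or a CTCF hotspot of B6xCAST embryonic stem cells (right). In liver B6xSPRET was open at 33.4% of wild-derived and 15.03% of laboratory sites, while CTCF overlapped 2.79% and 18.6%.

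Called sites were mostly distal, as were all merged sites. A site was assigned to a promoter when its centre lay within 1 kb of an annotated start, which held for 4.88% of wild-derived and 9.31% of laboratory liver sites, compared with 13.8% of those open in all 4 hybrids. In kidney the shares were 8.76% and 5.80%, compared with 14.7%, in lung 6.07% and 8.81%, compared with 17.5%, and in B cells 7.86% and 9.18%, compared with 24.0%. Among all merged sites the promoter share was 9.42% for liver, 10.7% for kidney, 10.6% for lung and 13.4% for B cells, so that the laboratory share of liver was close to that of all sites and the 7 others lay further below it. In liver and kidney the side with the more sites again had the higher promoter share. Introns held 47.5% of wild-derived and 51.4% of laboratory liver sites and 43.8% and 34.0% were intergenic. Laboratory sites of B cells stood apart by their repeats: 55.4% of the 294 had most of the 150 bases around their centre in repeats, compared with 11.6% of the wild-derived sites and 14.3% of all merged B cell sites.

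Motifs of tissue factors differed between the sides in liver and in kidney. C/EBP factors bind regulatory elements of hepatocytes, and the motif TTGCNNAA, searched on both strands in the central 150 bases, was found at 13.1% of wild-derived and 7.12% of laboratory liver sites, compared with 9.63% of all merged sites. FOXA, a pioneer factor of liver, showed the same order, with TGTTTAC at 4.37% and 2.56%, compared with 3.64% of all. In contrast, the CTCF motif AGGGGGCGC was found at 3 of 6707 wild-derived and at 0.812% of laboratory liver sites, compared with 0.471% of all. In kidney, the HNF1 motif GTTAATNAT was found at 0.892% of wild-derived and 2.01% of laboratory sites, and the HNF4 motif CAAAGTCCA at 0.666% and 1.75%, compared with 1.42% and 1.02% of all merged kidney sites. HNF1 and HNF4 regulate genes of the proximal tubule, and in both organs the side with fewer sites had the more motifs of these factors.

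In lung the sides were closer, as C/EBP was found at 9.81% and 12.2% and AP-1 at 8.27% and 8.43% of wild-derived and laboratory sites, compared with 9.29% and 7.67% of all. PU.1 (AGAGGAAGT), a factor of myeloid and B cells, was found at 4.02% of wild-derived B cell sites and at 1.70% of the 294 laboratory ones, and OCT (ATGCAAAT) at 2.65% and 2.04%, compared with 2.34% and 1.89% of all. Among strong liver sites, those with a lower score of 10 or more, the C/EBP shares were 14.02% of 599 wild-derived and 7.55% of 212 laboratory sites. Among strong kidney sites, however, HNF1 was found at 3 of 132 wild-derived and 0 of 24 laboratory sites, and HNF4 at 2 and 0. The order of the sides for these motifs was thus not seen at strong kidney sites, which were few. Of the remaining motifs, ETS (CCGGAAGT) was found at 0.0895% of wild-derived and 0.287% of laboratory liver sites, RUNX (TGTGGTT) at 4.32% and 4.65% and TEAD (ACATTCC) at 2.31% and 2.07%, compared with 0.334%, 4.17% and 2.22% of all. In kidney TEAD was found at 3.30% and 4.13%, compared with 3.61% of all. A match is only a word in the reference sequence and does not show binding.

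Sites of each side were spread over all autosomes. Wild-derived sites made up 2.61% to 3.12% of the merged sites of a chromosome, summed over tissues, and laboratory sites 1.68% to 1.91%. Locally they were denser. A window of 1 Mb held a median of 14 wild-derived sites, but 121 were called at chr14:43000001-44000000, 48 in lung, 40 in kidney, 18 in B cells and 15 in liver, and they made up 23.0% of the 526 merged sites there. This window carries 22 coding genes, most of them predicted, and 5 laboratory sites. The second, chr2:177000001-178000000, held 55 wild-derived sites, 9.91% of its merged sites, in a stretch of predicted and zinc finger genes such as Zfp970. The other 3 of the first 5, on chromosomes 8, 2 and 17, held 52, 49 and 48 sites, 3.65% to 4.32% of their merged sites.

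For the laboratory side the median window held 8 sites, and the densest lay at the major urinary protein genes. Mup genes encode carriers of pheromones made by the liver, and 37 of the 39 sites at chr4:60000001-61000000 were called in liver, with 1 in kidney and 1 in lung. They made up 14.7% of the 265 merged sites there, beside 5 wild-derived sites. The laboratory liver sites ranked 7 and 9 by strength lay there, near Mup pseudogenes, with lower scores of 100 and 77.5 and shared segments of 55 and 88 bp. Whether reads from near-identical copies were placed in this window, or in that of chromosome 14 above, was not tested. Akr1c genes, which encode aldo-keto reductases of steroid metabolism, lie at chr13:4000001-5000000, where 29 of 35 laboratory sites were of liver, 7.28% of merged sites. The other 3 windows held 35, 35 and 33 sites, 2.75% to 3.24% of their merged sites.

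Genes whose liver expression differs between males and females were examined because the laboratory hybrids were females and the sex of the others was not given for liver. Within 10 kb of 15 female-biased genes, 17 of 419 liver sites were wild-derived (4.06%) and 8 were laboratory (1.91%). Near 12 male-biased genes 7 of 181 were wild-derived (3.87%) and 11 laboratory (6.08%). Of all liver sites 1.89% were wild-derived and 4.12% laboratory, so the female-biased list lay above that share on the wild-derived side and below it on the laboratory side, and the male-biased list above it on both. Cyp2b9, a cytochrome P450 expressed in female liver, had 4 laboratory and no wild-derived sites among 46, whereas the female-biased Cyp3a16 had 4 wild-derived and no laboratory sites among 19, and Cux2, a repressor of male-biased genes in female liver, 5 and none among 86. Of the male-biased genes, Cyp2d9 and Slco1a1 each had 2 laboratory and no wild-derived sites. In kidney, 0 of 41 sites near 8 male-biased genes were called for either side, and near 3 female-biased genes 1 of 58 was called for each.

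Families of genes known to vary between mouse strains were read against the share of all sites. Near 78 genes of the cytochrome P450 families Cyp2, Cyp3 and Cyp4, which metabolize drugs and steroids, 54 of 975 liver sites were laboratory (5.54%, against 4.12% of all) and 29 were wild-derived (2.97%, against 1.89%). Cyp2a5 had 10 laboratory and no wild-derived sites, and Cyp2c29 8 and 1. Near the 22 Mup genes, 11 of 150 liver sites were laboratory (7.33%) and 2 wild-derived (1.33%). Near 34 genes of the major histocompatibility complex, which present antigens, 12 of 201 liver sites were laboratory (5.97%) and 1 wild-derived, and 10 of 219 B cell sites wild-derived (4.57%, against 6.04%).

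In B cells, unlike the MHC genes, some immune families had shares of wild-derived sites above that of all sites, while others lay below it. Near 26 Klr genes, which encode receptors of natural killer cells, 16 of 109 B cell sites were wild-derived (14.7%), 5 of them at Klrb1b. Near 11 Oas genes, sensors of viral RNA, 8 of 46 were wild-derived (17.4%), among them 3 at Oas3 and 3 at Oasl1. The Ifi200 family had 13 of 131 (9.92%), the interferon-induced GTPases 10 of 95 (10.5%) and the kappa light chain V genes (Igkv) 29 of 324 (8.95%). No laboratory site of B cells lay near the Klr, Oas or Ifi200 genes or the GTPases, and 2 lay near Igkv genes. Olfactory receptor genes (Olfr) and vomeronasal receptor genes (Vmn) had 3.85% and 2.98% of wild-derived sites in B cells, below the 6.04% of all, and zinc finger genes (Zfp), with 5.67%, were close to it. Ly6 genes, with 1 of 60 (1.67%), Pir and Lilr genes, with 1 of 25 (4.00%), and Skint genes, with 0 of 39, also lay below it. Serpina1 and Serpina3 genes lay above it, with 5 of 35 (14.3%). The counts per family are small, and these shares were not tested.

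Genes with the most called sites, chosen by those counts, were often very long. Gm20388, an annotation of 4435 kb, had 155 wild-derived and 62 laboratory sites over the 4 tissues, and Fgfr2, here 2961 kb long, 52 and 36. Inpp4b, a phosphatase of phosphoinositide signalling and itself 785 kb long, had 29 wild-derived sites, 20 of them in B cells and none in liver. Of all merged sites, 6.04% of those of B cells and 1.89% of those of liver were wild-derived. Aldh8a1, an aldehyde dehydrogenase of liver, had 13 laboratory sites in liver within 19.3 kb and none in another tissue, and Gm9732, in the chromosome 14 window above, had 21 wild-derived sites within 31.0 kb, spread over the 4 tissues as 4, 6, 6 and 5. A neighbour called for the same side lay within 10 kb of 17.6% of wild-derived and 24.6% of laboratory liver sites, and of 28.5% of wild-derived and 5.10% of laboratory B cell sites, shares that move with the number of sites called.

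The remaining families gave few sites. Of 230 liver sites near carboxylesterases (Ces), 15 were laboratory (6.52%, against 4.12% of all) and 8 wild-derived (3.48%, against 1.89%). Near sulfotransferases (Sult), 17 of 284 were laboratory (5.99%), 5 of them at Sult1a1, and 7 wild-derived (2.46%). Serpina1 and Serpina3 genes had 11 laboratory and 4 wild-derived sites of 240 (4.58% and 1.67%), Ugt genes 9 and 7 of 273 (3.30% and 2.56%) and Gst genes 8 and 4 of 214 (3.74% and 1.87%). The heavy chain V genes (Ighv) had 11 of 158 wild-derived sites in B cells (6.96%, against 6.04%). Ly6, Skint, Naip and Nlrp1, and Pir and Lilr genes had at most 4 called sites on a side in any tissue.

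The tissue labels were checked at starts of marker genes. All 4 hybrids had a hotspot at the start of each of 4 hepatocyte markers in liver, 5 tubule markers in kidney, 5 epithelial markers in lung and 5 B cell markers in B cells. Such hotspots were not confined to the matching tissue. The hybrids had them at 2 or 3 of 4 hepatocyte markers in kidney. In liver they had them at 2 of 5 tubule markers and 2 or 3 of 5 lung epithelial markers. Markers of other cells differed within a side as well as between sides. In liver, B6x129 had hotspots at 4 of 5 B cell markers and 2 of 3 T cell markers, B6xC3H at 2 and 0, B6xCAST at 1 and 0 and B6xPWK at 1 and 1. In lung, B6xC3H had them at 3 of 5 B cell markers and 0 of 3 T cell markers, and the other 3 hybrids at all 5 and all 3. In B cells, all 4 hybrids had hotspots at 2 or 3 of 5 myeloid markers, both of the erythroid markers and none of the hepatocyte markers. The part of such cells in the called sites was not tested, and in tissue a smaller number of cells of a type cannot be told apart from less accessible DNA in each.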

How the data were processed

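DNase-seq libraries were trimmed with Trimmomatic and aligned with BWA by the authors, and hotspots were called with hotspot2 at FDR 5% on mm10 after pooling the samples of a hybrid and tissue. Each deposited set lists regions with a score, −log10 FDR, capped at 100 by the authors. Here, Python 3.11.15 (numpy 2.4.6, pandas 2.3.3, matplotlib 3.10.9) merged autosomal hotspots overlapping by at least 1 bp, applied the rule, and placed sites on GENCODE M21 genes. Reads per condition came from the study's summary of pooled reads. Motifs were searched in 150 bp around the centre of the segment shared by both hybrids. Gene lists were read within 10 kb of each gene, on either side. Sites were named by score: 10 per side called in 4 tissues (3 where fewer), 3 per tissue and side, and the 5 densest windows of 1 Mb. For gene lists, the genes with the most called sites are named. The members and lists were chosen with earlier results of these data known. The code of the rule was run on simulated, well separated sites whose hotspots always overlapped. This does not test calling with weak hotspots or unequal depth. Sex chromosomes and RNA-seq were not used, B6xSPRET and embryonic stem cells only as further readings.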

Additional observations from a re-analysis of the deposited data

Results flagged for a closer look

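The ratio of wild-derived to laboratory sites was below 1 in liver (0.458) and above 1 in kidney (1.57), lung (5.36) and B cells (39.4). It drew attention because the tissues lay on opposite sides of 1. The difference between tissues was not tested, since each tissue has 2 hybrids on each side and 1 hotspot set for each. In liver the laboratory sets had more reads on average, and in the other 3 tissues the wild-derived sets did. The part of depth in these ratios was not tested beyond the equal number of hotspots given below, which kept all 4 on the same side of 1. That of the SPOT score was not tested.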

How the results depend on the processing

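With 1 set per hybrid and tissue, the spread within a hybrid is unknown, and read depth limits which weak sites were called. The reads pooled differed between the sides in every tissue, as did the SPOT scores in kidney and B cells. The sides differed in breeding, and the sex of the wild-derived hybrids was not given for solid organs. All sites are in coordinates of the B6 reference, so sequence that it lacks was not seen. The paper reports a modestly lower mappability rate for its more diverged strains, and the effect of this on the called sites was not tested. No paired analysis was possible because each hotspot set pools the samples of a hybrid and carries no replicate number. The ceiling on the score hides differences among the strongest sites.

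At FDR 1% the ratio of wild-derived to laboratory sites was 0.514 in liver, 1.66 in kidney and 7.41 in lung, with 1058 laboratory lung sites. With equal numbers of hotspots in the sets of a tissue, the ratios were 0.642, 1.23, 2.05 and 3.39 in liver, kidney, lung and B cells, with 3254 laboratory lung sites and 3268 wild-derived and 965 laboratory B cell sites, and 729 wild-derived and 441 laboratory regions were called in 2 or more tissues. With a −log10 FDR of 3 or more in both hybrids of the called side, wild-derived and laboratory sites numbered 2592 and 3739 in liver (ratio 0.693), 1646 and 793 in kidney (2.08), 1896 and 106 in lung (17.9) and 3954 and 91 in B cells, and 271 and 25 regions were called in 2 or more tissues. The median difference between wild-derived and laboratory sites in the reading of other tissues was then 12.3 percentage points, positive in 11 of 12 pairs of tissues. With a −log10 FDR of 10 or more, an alternative chosen after seeing the data, they numbered 599 and 212 in liver (ratio 2.83, reversed), 132 and 24 in kidney (5.50), 75 and 2 in lung (37.5) and 327 and 8 in B cells. Requiring no hotspot of the other side within 500 bp gave ratios of 0.511 in liver and 1.44 in kidney, and merging across gaps of up to 150 bp gave 0.511 and 1.49.

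Leaving out 1 hybrid makes a side of 1, which then needs a single hotspot, and counts were larger by construction. Wild-derived sites ranged from 8067 to 31189 in liver, 13058 to 41319 in kidney, 9623 to 78042 in lung and 12187 to 58114 in B cells. Laboratory sites ranged from 21250 to 90907, 11616 to 35677, 2173 to 48387 and 452 to 16315. The ratios ranged from 0.0887 to 1.47 in liver, 0.366 to 3.30 in kidney, 0.199 to 35.9 in lung and 0.747 to 128.6 in B cells. The direction turned in liver without B6xCAST (1.47) and without B6xPWK (1.11), in kidney without B6x129 (0.802) and without B6xC3H (0.366), and without B6xC3H in lung (0.199) and B cells (0.747). Regions called in 2 or more tissues ranged from 1621 to 13076 for the wild-derived and from 881 to 9936 for the laboratory side. The median difference in the reading of other tissues ranged from 2.86 to 8.71 points.

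With a promoter distance of 500 bp, promoter shares of wild-derived and laboratory sites were 2.67% and 4.90% in liver, 3.95% and 2.91% in kidney, 3.05% and 3.75% in lung and 3.84% and 4.42% in B cells. With equal numbers of hotspots, wild-derived promoter shares were 7.77% for kidney, 5.33% for lung and 6.36% for B cells. In windows of 300 bp the C/EBP shares of liver were 19.9% and 13.3% and the HNF1 shares of kidney 1.45% and 2.74%, so the order of the sides was the same. The cause of these changes was not tested. Of the 171 values recomputed, 64 stayed within their limit (1.5 times for counts, the counting interval for ratios and shares, 1 SD over pairs of tissues for the median difference), 100 moved past it without turning, and 7 changed direction. The counting interval takes sites as independent, so it narrows with their number and does not measure the spread between hybrids.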
